A study of Rattus norvegicus with 9 samples.

Results

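Cholesterol synthesis and handling was followed through 8 genes: Hmgcs1, Idi1, Fdft1, Sqle and Lss, which encode enzymes of the pathway, Insig1, which encodes a brake on it, Apoe, a lipid carrier, and Abca1, a cholesterol exporter. They are 8 of the 34092 genes in the deposited table and were chosen by name, with earlier results of these data known. All 8 were among the 15958 genes tested. None of them encodes an uptake receptor, so the uptake receptors are described from a separate list. The cells were primary hippocampal neurons of wild-type (WT) rats, dissected from fetuses on embryonic day 17 and grown in neurobasal medium with B27 supplement and without mitotic inhibitors. At day 7 in vitro, 3 cultures labelled NPCT received 1 nM human aminoprocalcitonin, the amino-terminal peptide of procalcitonin, for 24 h, 3 labelled PCT received 1 nM human procalcitonin, its parent peptide, for 24 h, and 3 labelled Control received vehicle. RNA was poly-A selected and sequenced, and levels are given as FPKM, a fragment count scaled to transcript length and to a size for each library, which appears to include a median-ratio scaling between libraries. The comparisons ask how the transcriptome of these neurons differs after each peptide. The methods speak of pooled samples of biological triplicates, so the p-values measure the spread between these libraries, which may be technical in part.

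Cells make cholesterol from acetyl-CoA through mevalonate, isoprenoid units, squalene and lanosterol. Falling sterol in the endoplasmic reticulum releases the SCAP-SREBP complex, whose processed transcription factor raises the genes of synthesis and uptake, while INSIG proteins hold the complex back when sterol is plentiful. In the brain, which is closed to blood cholesterol, astrocytes and other glia load cholesterol onto apolipoprotein E through ABC transporters, and neurons take the particles up through lipoprotein receptors. Oxysterols switch on the liver X receptors (LXR, Nr1h2 and Nr1h3), which raise Abca1, Abcg1, Apoe and Srebf1.

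The 9 libraries held 13573056 to 17211642 fragments each. All 13 neuron markers were above 0 in every library, with a summed level of 2271 to 2517 FPKM. Glial markers were present too, since 11 astrocyte markers summed to 2150 to 2712 FPKM and 13 of the 14 listed microglia markers were found and summed to 17.9 to 233.1 FPKM. The third NPCT library stood apart by its microglia markers, at 233.1 FPKM against 59.1 and 51.6 in the other NPCT libraries. The third PCT library differed most from its replicates, with a chi-square per degree of freedom of 18.9 and 21.6 against 6.38 between the other two. In bulk RNA, fewer cells of a type and less RNA per cell cannot be told apart.

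Promoters of 3 of the enzyme genes are shown because these genes give the lowest, the second lowest and the one positive fold change among the 5 enzymes with NPCT. Each sequence is the 300 bases from 250 before to 50 after the RefSeq start in the GRCr8 build, 5′ to 3′ on the gene's strand, with matches to the NF-Y box CCAAT and the Sp1 box GGGCGG on either strand in capitals.
Idi1, chr17:66547475-66547774, minus strand: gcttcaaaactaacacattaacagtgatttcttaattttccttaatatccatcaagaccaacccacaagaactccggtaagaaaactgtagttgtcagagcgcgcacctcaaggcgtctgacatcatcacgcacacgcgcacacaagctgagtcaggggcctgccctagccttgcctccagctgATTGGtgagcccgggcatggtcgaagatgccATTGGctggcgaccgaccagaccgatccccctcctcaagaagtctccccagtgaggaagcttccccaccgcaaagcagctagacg
Hmgcs1, chr2:53382054-53382353, plus strand: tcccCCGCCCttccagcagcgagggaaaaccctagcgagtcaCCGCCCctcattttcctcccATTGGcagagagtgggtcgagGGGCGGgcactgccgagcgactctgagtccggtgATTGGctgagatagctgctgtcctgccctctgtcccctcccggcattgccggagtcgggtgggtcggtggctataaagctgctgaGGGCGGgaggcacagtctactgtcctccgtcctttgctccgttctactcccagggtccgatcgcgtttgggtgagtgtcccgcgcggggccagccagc
Lss, chr20:12118181-12118480, minus strand: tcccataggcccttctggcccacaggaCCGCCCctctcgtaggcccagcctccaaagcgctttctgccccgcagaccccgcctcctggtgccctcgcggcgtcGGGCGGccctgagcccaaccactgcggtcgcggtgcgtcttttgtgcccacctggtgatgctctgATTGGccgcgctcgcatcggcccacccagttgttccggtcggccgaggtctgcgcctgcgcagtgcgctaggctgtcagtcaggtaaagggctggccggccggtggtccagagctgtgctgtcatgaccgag
The Idi1 promoter held 2 NF-Y boxes, at -66 to -62 and -35 to -31 from the start, and no Sp1 box in this window. The Hmgcs1 promoter held 2 NF-Y boxes, at -188 to -184 and -133 to -129, and 4 Sp1 boxes. The Lss promoter held 1 NF-Y box at -82 to -78 and 2 Sp1 boxes. A promoter was matched for 16 of the 21 genes of the synthesis lists. The NF-Y box was found in 13 of these 16 promoters (81.2%) and in 37.5% of all 33469 promoters in the reference, and the Sp1 box in 13 of 16 (81.2%) and in 33.1% of all. The SREBP element core TCACNCCAC was found in 1.12% of all promoters and in 0 of the 16, a description of this window and these letters alone. The data hold no measurement of binding at any of them.

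In the Control libraries, Apoe was the highest of the 8 genes per length, at 1325 ± 90.9 FPKM (SD, n = 3), and ranked 19 among all genes. Hmgcs1, which joins acetyl-CoA and acetoacetyl-CoA into HMG-CoA, followed at 394.9 ± 10.7 FPKM. Sqle, the squalene epoxidase, stood at 125.9 ± 5.21 FPKM. Fdft1 and Insig1 came next at 71.6 ± 3.18 and 69.5 ± 1.93 FPKM, and these neighbours overlapped. Idi1, at 47.9 ± 1.46 FPKM, was above Abca1 and Lss, which were lowest at 22.6 ± 0.997 and 20.5 ± 1.34 FPKM and overlapped with each other. Every other step in this order separated the 3 Control libraries of one gene from those of the next. The fewest fragments behind any of these values were 928, for Lss in a PCT library, and the most were 71086, for Apoe in an NPCT library.

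NPCT against Control. With NPCT, 4 of the 5 enzyme genes were at lower levels and Apoe was at a higher level, with no overlap between the 3 NPCT and the 3 Control libraries. Over all genes tested, 20.3% were lower and 20.0% higher without overlap, so such a separation was common in this comparison. No gene of the 8 met both thresholds for a differentially expressed gene (DEG), an adjusted p of at most 0.05 in limma and a fold change above 1.5, where 0.219% of all genes tested did. Idi1 passed the first and not the second, and Apoe the second and not the first. Without adjustment, at a p under 0.05, 1 gene was higher and 3 were lower, where 14.4% and 14.9% of all genes were. With limma-voom on recovered fragments, 1 of the 8 genes, Apoe, was called, where 2.44% of all genes were.

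Idi1, on chromosome 17 (57976268 to 57984036, Rnor_6.0, ENSRNOG00000016690), encodes the isomerase that makes the reactive isoprenoid unit. It was at 46.3, 49.2 and 48.2 FPKM in Control and at 31.9, 33.9 and 33.6 FPKM in NPCT. The NPCT libraries lay close together and well under every Control and PCT library, at 69.2% of the Control mean. The log2 fold change of FPKM + 0.1 was -0.53 ± 0.07 (SE), with an adjusted p of 0.0493 in limma, and over the 19 alternative settings the value ranged from -0.56 to -0.49 and the adjusted p from 0.00259 to 0.169.

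Hmgcs1, on chromosome 2 (52431601 to 52445055, ENSRNOG00000016552), was at 383.4, 396.8 and 404.6 FPKM in Control and at 330.2, 317.7 and 319.4 FPKM in NPCT. All 3 NPCT libraries were lower than all 3 Control libraries, at 81.7% of the Control mean. The log2 fold change was -0.29 ± 0.07 (SE), with an adjusted p of 0.0574 in limma.

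Sqle, on chromosome 7 (99609191 to 99624732, ENSRNOG00000009550), encodes the enzyme that adds the oxygen from which the sterol ring is closed. It was at 119.8, 128.5 and 129.2 FPKM in Control and at 109.0, 102.7 and 107.3 FPKM in NPCT, again with no overlap. Its log2 fold change was -0.24 ± 0.06 (SE), with an adjusted p of 0.0608 in limma.

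Fdft1, the squalene synthase on chromosome 15 (46339249 to 46367302, ENSRNOG00000021314), was at 67.97, 73.8 and 73.0 FPKM in Control and at 67.88, 62.8 and 60.8 FPKM in NPCT. The groups were only just apart, since the highest NPCT library and the lowest Control library differed in the second decimal. The log2 fold change was -0.17 ± 0.07 (SE), with an adjusted p of 0.173 in limma.

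Lss, the lanosterol synthase on chromosome 20 (12842884 to 12870497, ENSRNOG00000054549), was the one enzyme of the 5 that was not lower. Its levels of 19.4, 20.2 and 22.0 FPKM in Control and 23.3, 22.0 and 21.0 FPKM in NPCT overlapped. Its log2 fold change of 0.11 ± 0.14 (SE) came with an adjusted p of 0.631 in limma.

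Insig1, on chromosome 4 (342302 to 350515, ENSRNOG00000006859), encodes an endoplasmic reticulum protein that retains SCAP and is itself raised by SREBP. It was at 69.5, 67.6 and 71.4 FPKM in Control and at 64.7, 61.7 and 65.1 FPKM in NPCT. The groups did not overlap, but the difference was small, with a log2 fold change of -0.12 ± 0.07 (SE) and an adjusted p of 0.278 in limma.

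Apoe, on chromosome 1 (80612895 to 80617057, ENSRNOG00000018454), encodes the main lipid carrier of the brain, made mostly by glia. It was at 1258, 1289 and 1429 FPKM in Control and at 2314, 2092 and 2960 FPKM in NPCT. Every NPCT library was above every Control and every PCT library, and the third NPCT library, which also had the most microglia marker RNA, was the highest. The NPCT mean was 2455 ± 451 FPKM (SD, n = 3), 185% of the Control mean. The test did not pass, as the log2 fold change was 0.88 ± 0.16 (SE) with an adjusted p of 0.0509 in limma. Without the third NPCT library the log2 fold change was 0.73, with an adjusted p of 0.132. Apoe was called a DEG in 7 of the 19 alternative settings, which called 189 to 579 of all genes tested instead of 35, with adjusted p-values between 0.00642 and 0.169 over all of them.

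Abca1, on chromosome 5 (69857771 to 69983015, ENSRNOG00000018126), encodes the transporter that lipidates apolipoproteins. It was at 23.2, 23.2 and 21.4 FPKM in Control and at 18.3, 22.3 and 19.5 FPKM in NPCT. The groups overlapped, with a log2 fold change of -0.18 ± 0.11 (SE) and an adjusted p of 0.297 in limma. In the count of non-overlapping groups, 1 gene of the 8 was higher with NPCT and 5 were lower, beside the 20.0% and 20.3% of all genes tested. The median log2 fold change of the 8 genes was -0.17, beside 0.01 over all genes tested.

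**Figure D1:**
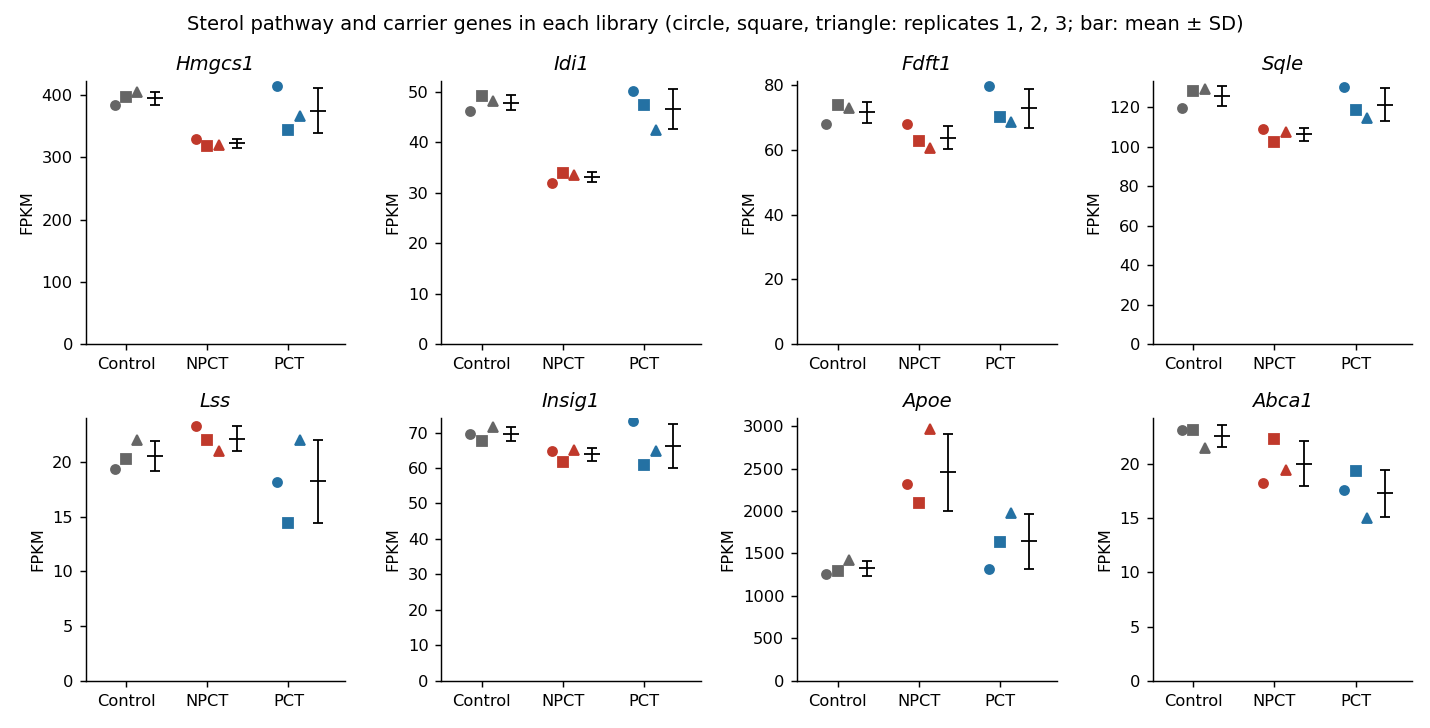
FPKM (vertical axes, from 0) of the 8 genes in each library, with circles, squares and triangles for replicates 1, 2 and 3 and bars for mean ± SD (n = 3). Hmgcs1, Idi1 and Sqle were lower in all 3 NPCT libraries than in every other library, Apoe was higher, and Lss overlapped between all groups.

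PCT against Control. PCT at the same dose and time left the enzyme genes and Insig1 overlapping with Control, and Abca1 alone of the 8 genes separated, at a lower level. No gene of the 8 was a DEG in limma, where 2.31% of all genes were, and the count with limma-voom was also 0, where 2.35% of all genes were called. Before adjustment, 0 genes were higher at a p under 0.05 and 1, Abca1, was lower, where 10.1% and 8.79% of all genes were. The groups did not overlap for 0 genes in the higher direction and for 1 in the lower, where 13.1% and 11.9% of all genes were so placed.

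Abca1 was at 17.6, 19.3 and 15.0 FPKM in PCT, below all 3 Control libraries. The mean was 17.3 ± 2.19 FPKM (SD, n = 3), 76.6% of Control. The log2 fold change was -0.39 ± 0.11 (SE), with an adjusted p of 0.0828 in limma. Without the third PCT library, the lowest of the group, it was -0.29 with an adjusted p of 0.127.

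Idi1 was at 50.3, 47.4 and 42.4 FPKM in PCT, with a log2 fold change of -0.04 ± 0.07 (SE). Hmgcs1 was at 414.7, 344.1 and 365.7 FPKM and Sqle at 130.5, 118.9 and 114.4 FPKM. For these 3 genes the first PCT library was the highest of the group, and the spread was wider than in NPCT. Fdft1 was at 79.7, 70.2 and 68.6 FPKM and Insig1 at 73.1, 60.9 and 64.7 FPKM. Lss was the most scattered of the enzymes, at 18.1, 14.5 and 22.0 FPKM, with a log2 fold change of -0.19 ± 0.14 (SE). The adjusted p-values of these 6 genes in limma lay between 0.5 for Lss and 0.914 for Fdft1.

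Apoe was at 1321, 1638 and 1971 FPKM in PCT. The first PCT library was within the Control range and the other two were above it. Its log2 fold change was 0.29 ± 0.16 (SE), with an adjusted p of 0.382 in limma. Over all genes tested the median log2 fold change was 0.01, and over the 8 genes it was -0.06.

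NPCT against PCT. The peptides were compared with each other at the matched dose of 1 nM and time of 24 h. Idi1 was lower with NPCT, with a log2 fold change of -0.49 ± 0.07 (SE) and an adjusted p of 0.00407 in limma, under the fold threshold. That adjusted p stayed between 0.000751 and 0.0288 in all 19 alternative settings. Apoe was higher with NPCT at 149% of the PCT mean, with a log2 fold change of 0.58 ± 0.16 (SE) and an adjusted p of 0.0436 in limma, just short of the fold threshold of 1.5. This pass on adjusted p was lost in 8 of the 9 fits that left out 1 library, among them the fit without the third NPCT library, where the Apoe value was 0.44 with an adjusted p of 0.113. It was kept without the third PCT library, at 0.72 with an adjusted p of 0.00969, and over all 19 alternatives the value ranged from 0.435 to 0.724 and the adjusted p up to 0.13.

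Hmgcs1, Sqle and Fdft1 were lower in every NPCT than in every PCT library, with log2 fold changes of -0.21, -0.19 and -0.19 and adjusted p-values in limma of 0.0765, 0.0765 and 0.113. Insig1 overlapped, at -0.05 ± 0.07 (SE). Lss and Abca1 also overlapped, at 0.30 ± 0.14 and 0.21 ± 0.11 (SE), with adjusted p-values in limma of 0.16 and 0.2. In this comparison 5.76% of all genes were DEGs and 0 of the 8 genes were, while limma-voom called 1, Apoe, and 6.01% of all genes. With unadjusted p-values under 0.05, 1 gene was higher and 4 were lower, where 15.6% and 17.5% of all genes were, and the same counts held for groups that did not overlap, where 15.4% and 18.0% of all genes did not. The 3 comparisons share libraries pairwise, so their values are not independent of one another.

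**Figure D2:**
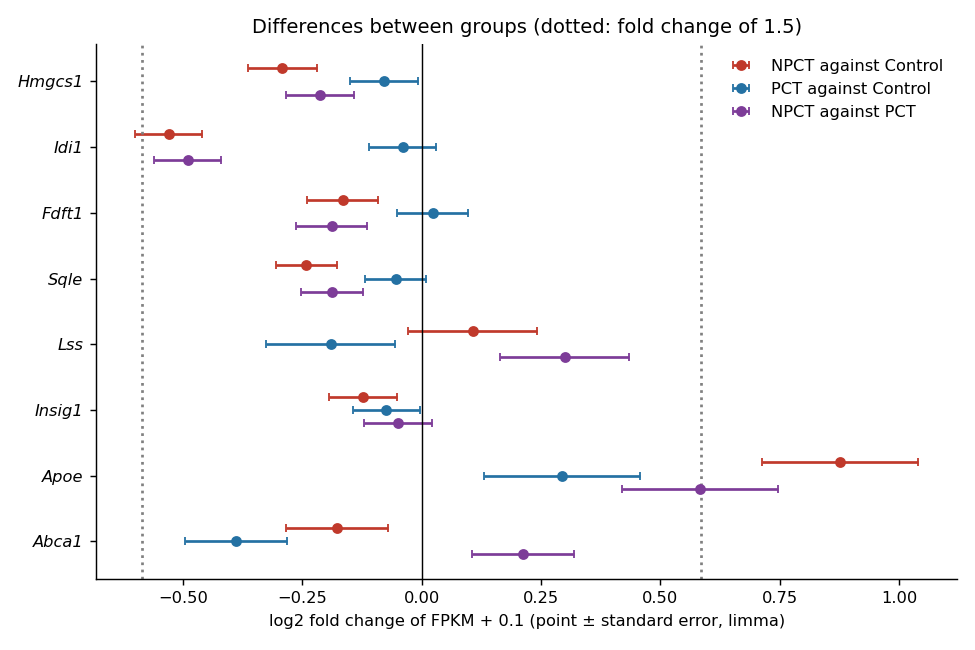
Log2 fold change of FPKM + 0.1 (horizontal axis) for the 8 genes (vertical axis) in the 3 comparisons, as point ± standard error from limma, with dotted lines at a fold change of 1.5. Apoe with NPCT is the one point clearly beyond a dotted line, Idi1 with NPCT lies just inside at -0.53, and the PCT points of the enzymes lie near 0.

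The 8 genes were then set among the whole synthesis route, listed as 9 mevalonate and isoprenoid genes and 12 squalene to cholesterol genes, which include the 5 enzymes above. With NPCT, 13 of the 21 genes had a negative and 8 a positive log2 fold change, with a median of -0.15. None was a DEG in limma or limma-voom, where 0.219% and 2.44% of all genes were. At an unadjusted p under 0.05, 2 were higher and 8 lower, where 14.4% and 14.9% of all genes were. Nsdhl, which removes a methyl carbon from the sterol ring, had the smallest p of the squalene list, with a log2 fold change of -0.42 ± 0.11 (SE) and an adjusted p of 0.059. Dhcr7, a reductase of the last steps, was at -0.07 ± 0.07 (SE). Of the 13 neuron markers, 9 had negative and 4 positive log2 fold changes with NPCT, from -0.43 to 0.28 with a median of -0.06. Without overlap, 3 of them were higher and 6 lower, where 20.0% and 20.3% of all genes were. The lower ones included Gad2, Map2, Snap25 and Syt1, at -0.43, -0.425, -0.419 and -0.295. The higher ones were Slc17a7, Nefm and Tubb3, at 0.281, 0.275 and 0.174. The part of neurons in the lower enzyme genes was not tested.

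The positive values included Pmvk and Mvk, the mevalonate-phase kinases, at 0.47 ± 0.18 and 0.33 ± 0.11 (SE), with adjusted p-values in limma of 0.13 and 0.0848. The direction went along with gene length, since the 8 higher genes had a median length of 2157.5 bases and the 13 lower genes 3158 bases. Across the 21 genes, which are not replicates and share the libraries, Pearson's r between log2 fold change and log2 length was -0.63. The slope of the levels of the tested genes outside the lists on length was negative in all 3 NPCT libraries and in the third PCT library, at -0.0281 to -0.0184 log2 units per doubling, and between -0.000472 and 0.0285 in the other 5. The share of fragments from mitochondrially encoded genes divided the libraries in the same way, at 3.70 to 4.17% in NPCT and 4.11% in the third PCT library, and 5.18 to 6.21% in the other 5. Its part in the differences with NPCT, Idi1 and Apoe among them, was not tested. With each library's length trend removed, the split stayed 8 against 13 and the median was -0.11. The same removal left Idi1 at -0.51 with an adjusted p of 0.0505, Hmgcs1 at -0.26, Sqle at -0.22 and Apoe at 0.87.

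With PCT, 16 of the 21 synthesis genes had a negative and 5 a positive log2 fold change, with a median of -0.055. None was a DEG in limma or limma-voom, where 2.31% and 2.35% of all genes were. At an unadjusted p under 0.05, 0 were higher and 3 lower, where 10.1% and 8.79% of all genes were. Mvd, the mevalonate diphosphate decarboxylase, had the smallest p of the mevalonate list, with a log2 fold change of -0.37 ± 0.13 (SE) and an adjusted p of 0.17. The summed FPKM of the 21 genes was 1310 to 1397 in Control, 1197 to 1259 in NPCT and 1235 to 1424 in PCT, so that the NPCT libraries lay below Control and the PCT libraries spanned it.

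Between the peptides, 1 of the 21 genes was a DEG in limma, where 5.76% of all genes were. Ebp, the sterol isomerase, was at 6.04, 6.41 and 6.63 FPKM in NPCT and at 4.60, 3.14 and 4.49 FPKM in PCT, a log2 fold change of 0.65 ± 0.16 (SE) with an adjusted p of 0.0298. That call held in 5 of 9 fits that each left out 1 library.

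**Figure D3:**
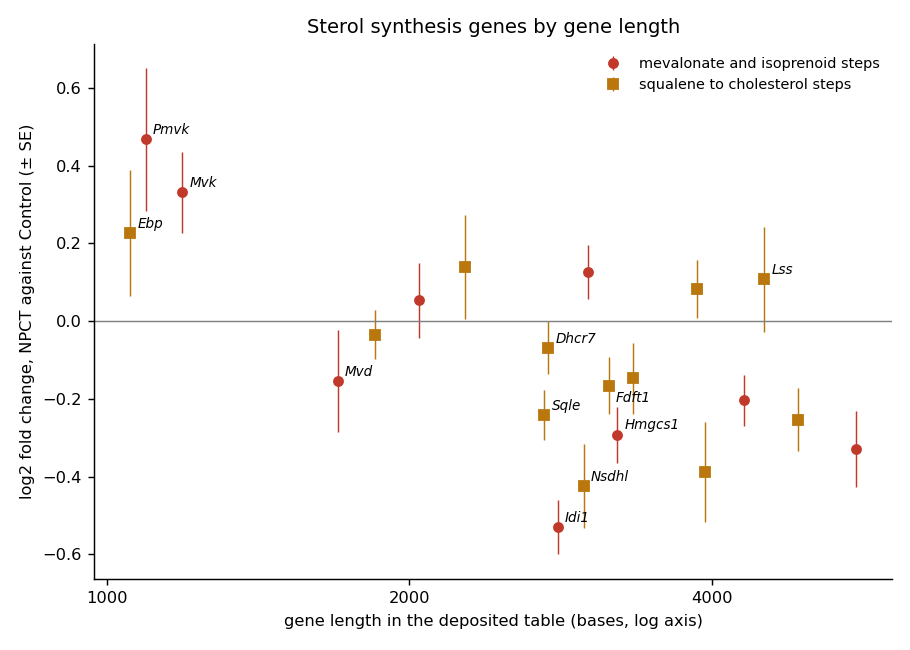
Log2 fold change of NPCT against Control ± SE (vertical axis) for the 21 synthesis genes against gene length in bases (horizontal axis, log scale), circles for mevalonate and isoprenoid steps and squares for squalene to cholesterol steps. Genes described in the text are labelled. The short genes Pmvk, Mvk and Ebp lie above 0, and Idi1, at 2811 bases, has the lowest value, -0.53.

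Of the 10 genes that control SREBP, 9 could be tested and 1 fell under the level filter. No gene was a DEG with NPCT in limma or limma-voom, where 0.219% and 2.44% of all genes were. At an unadjusted p under 0.05 the count was 0 higher and 1 lower, where 14.4% and 14.9% of all genes were. This 1 gene, Mbtps2, a protease that frees SREBP from the membrane, had a log2 fold change of -0.49 ± 0.13 (SE) and an adjusted p of 0.0608 in limma. Srebf2, the SREBP of cholesterol synthesis, was at 59.1 ± 2.32 FPKM in Control, 63.5 ± 3.20 in NPCT and 55.3 ± 2.12 in PCT. Its log2 fold changes of 0.10 and -0.10 against Control had adjusted p-values of 0.277 and 0.444. Scap, the sterol-sensing escort of SREBP, was at 0.08 and -0.10, and Insig2 at 0.06 and 0.00.

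Srebf1, whose product serves mainly fatty acid synthesis, fell with PCT and was the 1 DEG of this list of 9, where 2.31% of all genes were DEGs. It was at 230.6, 211.7 and 220.4 FPKM in Control and at 136.5, 110.5 and 142.6 FPKM in PCT. All 3 PCT libraries were far below Control, with a log2 fold change of -0.77 ± 0.18 (SE) and an adjusted p of 0.0447 in limma. The call was lost with the length trend removed, at -0.76 with an adjusted p of 0.0518, and held in 2 of 9 fits that left out 1 library, with log2 fold changes of -0.85 to -0.66 and an adjusted p of at most 0.162. In NPCT it was at 213.7, 235.9 and 355.7 FPKM, the highest value again in the third library, and NPCT exceeded PCT by 1.02 ± 0.18 (SE) with an adjusted p of 0.00864, a call that held in 9 of 9 such fits.

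None of the 9 uptake and intracellular handling genes was a DEG in limma or limma-voom in any of the 3 comparisons. Of all genes, limma called 0.219% with NPCT, 2.31% with PCT and 5.76% between the peptides. The shares in limma-voom were 2.44%, 2.35% and 6.01%. At an unadjusted p under 0.05, 1 was higher and 1 lower with NPCT (14.4% and 14.9% of all genes), 0 and 1 with PCT (10.1% and 8.79%), and 2 and 1 between the peptides (15.6% and 17.5%). Vldlr, a receptor for very low density lipoprotein and reelin, was at 24.6 ± 0.574 FPKM in Control and 18.8 ± 1.17 in NPCT, with no overlap, a log2 fold change of -0.39 ± 0.09 (SE) and an adjusted p of 0.053. Lrp1, a major neuronal receptor for ApoE particles, was at 85.9 ± 1.93 FPKM in Control and 73.8 ± 4.10 in PCT, with a log2 fold change of -0.22 ± 0.06 (SE) and an adjusted p of 0.0954. Npc1, which moves cholesterol out of lysosomes, stood at 10.9, 10.9 and 10.7 FPKM in Control, NPCT and PCT.

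The list of 16 efflux, carrier and turnover genes, which includes Apoe and Abca1, held most of the DEGs of the pathway. With NPCT, 14 had a positive log2 fold change and 2 a negative one, with a median of 0.13. There was no DEG in limma, which called 0.219% of all genes, and 1, Apoe, in limma-voom, which called 2.44%. At an unadjusted p under 0.05, 4 were higher and 1 lower, where 14.4% and 14.9% of all genes were. Lcat, which esterifies cholesterol on lipoproteins, was at 25.3, 25.0 and 24.2 FPKM in Control and at 30.2, 32.3 and 42.9 FPKM in NPCT, a log2 fold change of 0.48 ± 0.13 (SE) with an adjusted p of 0.0651. Nr1h2, the widely expressed LXR, was at 19.6 ± 0.940 FPKM in Control and 25.9 ± 1.37 in NPCT, a log2 fold change of 0.40 ± 0.11 (SE) with an adjusted p of 0.0646. Cyp46a1, the neuronal cholesterol 24-hydroxylase, was at 27.0 ± 0.705 and 31.3 ± 0.531 FPKM, a log2 fold change of 0.21 ± 0.06 (SE) with an adjusted p of 0.0665. Abcg1, the partner exporter of Abca1, was at 0.17 ± 0.15 (SE).

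With PCT, 11 of the 16 genes had a negative log2 fold change, with a median of -0.27, and 4 fell as DEGs in limma, where 2.31% of all genes tested were DEGs in either direction. Clu, another lipid carrier of the brain, was at 455.2, 457.1 and 479.7 FPKM in Control and at 206.2, 245.4 and 192.0 FPKM in PCT. Its log2 fold change was -1.12 ± 0.13 (SE), with an adjusted p of 0.00326. Cyp7b1, an oxysterol hydroxylase, was at 50.3, 50.9 and 43.7 FPKM in Control and at 24.8, 25.9 and 23.2 FPKM in PCT, and its log2 fold change was -0.97 ± 0.10 (SE) with an adjusted p of 0.0014. Lcat was at 11.3, 14.3 and 13.0 FPKM in PCT, and its log2 fold change was -0.95 ± 0.13 (SE) with an adjusted p of 0.00598. Each of these 3 genes was in all 3 PCT libraries well under every Control library, and the calls held in 9 of 9 fits that left out 1 library.

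Ch25h, which makes the oxysterol 25-hydroxycholesterol, was low, at 2.68, 1.17 and 2.05 FPKM in Control and at 0.563, 0.535 and 0.217 FPKM in PCT. Its log2 fold change was -1.94 ± 0.38 (SE) with an adjusted p of 0.0277, and the call held in 5 of 9 such fits. Abca2, an endolysosomal lipid transporter, was at -0.40 ± 0.06 (SE) with an adjusted p of 0.00782, under the fold threshold. Apoe was among the 5 genes of the list with a positive value, at 0.29 ± 0.16 (SE), as were the apolipoprotein genes Apoc1, at 0.76 ± 0.39 (SE), and Apod, at 0.56 ± 0.22 (SE), with adjusted p-values of 0.336 and 0.21.

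Between the peptides, 5 of the 16 genes were higher with NPCT as DEGs in limma, where 5.76% of all genes were DEGs in either direction, with a median log2 fold change of 0.43 over the list. They were Lcat at 1.43, Clu at 1.21, Cyp7b1 at 0.72, Ch25h at 2.02 and Nr1h3, the LXR of macrophages and liver, at 1.29. The Nr1h3 call, at 1.42 ± 0.517 FPKM in NPCT and 0.505 ± 0.141 in PCT, held in 1 of 9 fits that left out 1 library, and the other 4 held in 9 of 9. Abca1, at 0.21, was not among them.

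Markers of cell types were also compared between the groups. With PCT, all 13 microglia markers tested had negative log2 fold changes, with 5 DEGs in limma and 2 in limma-voom, where 2.31% of all genes were DEGs in limma, and their summed FPKM was 41.2 to 56.9 in Control, 51.6 to 233.1 in NPCT and 17.9 to 23.8 in PCT, with none at 0 in any library. Of the 10 astrocyte markers tested, 9 had negative values with PCT, with 5 DEGs beside the same 2.31%. The other, Gfap, was at 828.4, 764.6 and 734.2 FPKM in Control and at 899.1, 931.2 and 926 FPKM in PCT. Its log2 fold change was 0.25 ± 0.08 (SE), with an adjusted p of 0.147 in limma. The summed FPKM of the list, in which Gfap had the highest level, was 2493 to 2673 in Control, 2452 to 2712 in NPCT and 2150 to 2217 in PCT. The 13 neuron markers gave 0 DEGs against Control with either peptide in limma and limma-voom, and at an unadjusted p under 0.05 the counts were 1 higher and 6 lower with NPCT, where 14.4% and 14.9% of all genes were, and 1 higher and 4 lower with PCT, where 10.1% and 8.79% were. With NPCT, the microglia and astrocyte lists gave 0 DEGs in limma and limma-voom, with 1 and 1 higher and 0 and 2 lower at an unadjusted p under 0.05, beside the same shares of all genes. All 13 microglia markers had positive values with NPCT, and each was highest in NPCT library 3. The median log2 level of the markers, centred for each gene, was 2.371 in that library. It was 0.355 and 0.148 in NPCT libraries 1 and 2, beside 0.16 to 0.464 in Control. Only C1qa and C1qc were above every Control library in all 3 NPCT libraries. The oligodendrocyte lineage markers gave 0 DEGs against Control in limma and limma-voom, with 5 higher and 0 lower with NPCT and 2 higher and 1 lower with PCT at an unadjusted p under 0.05, beside the same shares. Of the 5 fibroblast markers, 1, Col3a1, was a DEG, higher with PCT, where 2.31% of all genes were DEGs. All 5 were lower with NPCT than with PCT. Col3a1 was the 1 DEG there, at -0.90 with an adjusted p of 0.0185 in limma, where 5.76% of all genes were DEGs. Between the peptides, all 13 microglia markers were at higher levels with NPCT, with 9 DEGs in limma and a median log2 fold change of 2.13, and 9 of the 10 astrocyte markers were, with 3 DEGs, where 5.76% of all genes were DEGs. The part of these cell types in the lower Clu, Lcat, Cyp7b1, Ch25h, Srebf1 and Abca1 with PCT, and in the DEGs between the peptides, was not tested. With NPCT, where Apoe was higher, the summed FPKM of the 10 oligodendrocyte lineage markers was also higher, at 517.5 to 552.5 beside 474.6 to 491.1 in Control and 430.5 to 448.7 in PCT, and the microglia sum was above every Control library in the first NPCT library and in the third. The part of either cell type in the Apoe difference was not tested.

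**Figure D4:**
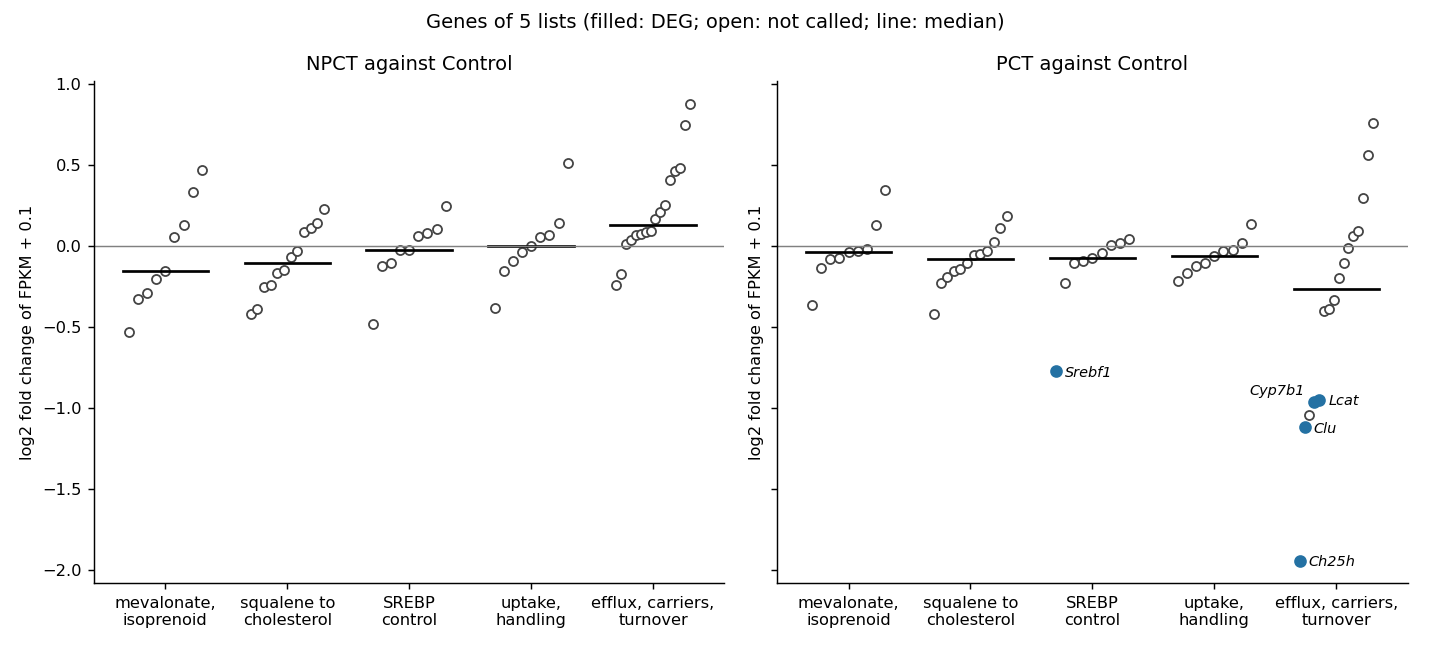
Log2 fold change of FPKM + 0.1 (vertical axis) for each tested gene of 5 lists (horizontal axis), NPCT against Control at left and PCT against Control at right, with filled symbols for DEGs and lines for medians. The 5 filled symbols, Srebf1, Cyp7b1, Lcat, Clu and Ch25h, all lie below 0 with PCT, and no symbol is filled with NPCT.

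**Figure D5:**
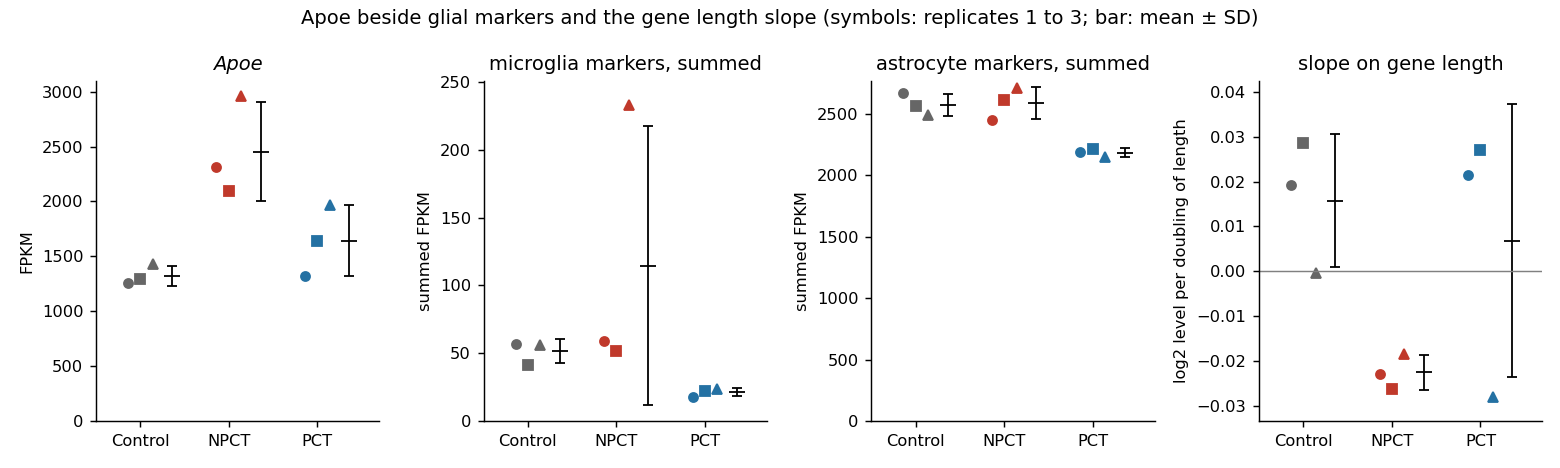
Apoe FPKM, summed FPKM of microglia and of astrocyte markers, and the slope of log2 level on gene length (vertical axes) in each library, with symbols for replicates 1 to 3 and bars for mean ± SD (n = 3). The third NPCT library is highest for Apoe and for the microglia markers, the first and second NPCT libraries have microglia sums of 59.1 and 51.6 beside 41.2 to 56.9 in Control, and the slopes of the NPCT libraries and the third PCT library are negative.

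Across the 9 libraries the levels of the enzyme genes varied together, apart from Lss. As a description, over libraries that share groups and depth, Pearson's r of log2 levels was 0.95 between Hmgcs1 and Sqle, 0.92 between Sqle and Idi1, 0.88 between Hmgcs1 and Idi1, and 0.84 between Hmgcs1 and Insig1. Lss gave -0.16 with Hmgcs1 and -0.55 with Idi1. Apoe ran opposite to Idi1, at -0.90, and to Hmgcs1, at -0.87, while Abca1 gave values between -0.36 and 0.11 with the other 7 genes.

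Among 9978 genes outside the lists, the 5 whose pattern over the 9 libraries was most like the mean of the 5 enzymes and Insig1 were Nrip3 (r = 0.98), Mcph1 (0.96), Dnm3 (0.95), AABR07028615.1 (0.95) and Ndrg1 (0.95). Nrip3 was at 54.7 FPKM in Control, 48.0 in NPCT and 51.9 in PCT. Nearest to Apoe were Tex264 (r = 0.99) and 2 nuclear genes for subunits of the respiratory chain, Atp5f1e (0.99) and Cox6a1 (0.985). Cox6a1 was at 320 FPKM in Control, 548 in NPCT and 395 in PCT. Nearest to Abca1 were S1pr1 (r = 0.97), Mmp19 (0.96) and Ddr2 (0.95), and S1pr1, a sphingolipid receptor, was at 48.1, 44.5 and 38.7 FPKM in the same order.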

How the data were processed

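The study measured RNA in 9 libraries of rat primary hippocampal neurons, 3 per group. Per the submitters' processing notes, reads were aligned to Rnor_6.0 with HISAT2 2.0.5 and counted with featureCounts 1.5.0-p3, and StringTie 1.3.3b, DESeq2 1.20.0 and CASAVA are also named. The authors deposited FPKM values. Values multiplied by gene length and by a factor for each library gave whole fragments for 100% of entries (tolerance 0.1), 13573056 to 17211642 per library. The median ratio of the values to their geometric mean was 1.0065 in each library, so the deposited values appear already scaled between libraries, by a step not given in the sources used here. The strand setting of the counting is not given in the sources used here, so overlapping genes on opposite strands may share reads.

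From FPKM, genes with a mean of at least 0.5 were tested as log2(FPKM + 0.1) with limma 3.58.1 in R 4.3.3, in 1 fit over all 9 libraries with a mean-variance trend and Benjamini-Hochberg adjustment over 15958 genes. All adjusted p-values are from that test unless limma-voom is named. Fold changes on this scale understate changes of low genes. DEGs were defined, as in the study, by an adjusted p no larger than 0.05 together with more than 1.5-fold difference.

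The 8 genes, the pathway lists and the marker lists were chosen with earlier results of these data known. The text names all 8 genes, a fixed set of regulators and receptors, each list gene that was a DEG, the gene with the smallest p of a list, and the genes of most similar pattern by Pearson's r (mean FPKM of at least 5). Some genes that this rule names are not reported here. Abca2, Apoc1, Apod, Pmvk, Mvk, Col3a1 and the single neuron, astrocyte and microglia markers were named after their values were seen. Promoters came from RefSeq, and 6 of the 8 genes were matched by symbol. Other columns of the deposited table held gene annotation.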

Additional observations from a re-analysis of the deposited data

How the results depend on the processing

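The 8 genes kept their direction under all alternatives in all comparisons, except for 3 small differences. Fdft1 with PCT against Control was -0.032 after quantile normalization, -0.014 without the first Control library and -0.044 without the first PCT library, and ranged from -0.044 to 0.065 when 1 library was left out. Idi1 with PCT against Control was 0.028 without the third PCT library and ranged from -0.095 to 0.028. Insig1 with NPCT against PCT was 0.024 without the first PCT library and ranged from -0.108 to 0.024. The alternatives changed the pseudocount (0.01 or 1) and the filter (a minimum mean FPKM of 1, or none), or used median-ratio scaling, quantile normalization, only the 2 groups compared, a replicate block, removal of the length trend, limma-voom on recovered fragments, and each library left out in turn. Median-ratio scaling changed values in the last digit at most, as its factor was the same to 5 digits in all 9 libraries. With limma-voom on fragments scaled to library totals, Hmgcs1 and Apoe with NPCT against Control were -0.253 and 0.917, beside -0.292 and 0.876 on the deposited values.

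The number of the 8 genes called with NPCT against Control was 0 and became 1, each time Apoe, with a mean FPKM of at least 1, quantile normalization, only the 2 groups compared, a replicate block and limma-voom. With NPCT against PCT limma-voom also gave 1. Leaving out 1 library gave 0 to 1 in both comparisons, and 0 to 1 genes of the efflux list with NPCT, an alternative chosen after seeing the data. Without the first PCT library the adjusted p of Apoe was 0.0429 and without the third it was 0.00642.

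The count over all genes with NPCT against Control depended most on the setting. It was 35, and became 208 with a mean FPKM of at least 1, 9 with no filter, 189 with quantile normalization, 579 with only the 2 groups compared, 2 with the length trend removed and 390 with limma-voom, and 0 to 562 when 1 library was left out. With PCT against Control it was 368 and ranged from 172 to 398 when 1 library was left out. With NPCT against PCT it was 919, became 454 with only the 2 groups compared, and ranged from 525 to 1623 when 1 library was left out. The cause was not tested.

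The correlation of same-numbered libraries' deviations from their group means was -0.072 to 0.034 over the genes tested. Differently numbered libraries were not set beside them, so these values do not decide whether replicate numbers pair the samples. With the replicate block, 319 genes were called with NPCT against Control and 1 of the 8 genes, Apoe, with an adjusted p of 0.0379. The 8 genes had at least 928 fragments in every library.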
